A study of Mus musculus with 150 samples.

Results

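The neurofilament genes of the mouse, Nefl, Nefm, Nefh and Prph, were followed across 34 tissues. They are 4 of the 8251 genes for which the platform annotation holds a probe set of their own, and they are read by 5 of 12422 probe sets that are not array controls. Nefl, Nefm and Nefh, which encode the light, medium and heavy neurofilament chains, were each read by 1 probe set (103575_at, 92346_at and 103234_at). Prph, which encodes peripherin, was read by 2 probe sets, 104751_at, called the first here, and 161482_f_at, the second. All 4 genes were found. The members were taken by gene symbol and not by any measured value. Ina, which encodes alpha-internexin, is given beside them for comparison through 1 of its 2 probe sets, 94334_f_at. On the other Ina probe set, 94335_r_at, the order of the tissue means differed in part, with hippocampal CA1 above spinal cord, although the ranges of that pair of tissues overlapped.

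Neurofilaments are the intermediate filaments of neurons. The light chain forms the core of the filament together with the medium and heavy chains, whose long tails reach out from it, and the filaments fill large axons and help to set their width. Peripherin is a related filament protein known from neurons that send axons out of the brain and cord and from some central neurons, and alpha-internexin is a filament protein of central neurons.

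The mice were wild-type animals of 5 inbred strains (C3H, AJ, DBA, 129 and B6). Their total RNA was labelled with biotin and read on one-colour Affymetrix arrays. Neural tissue comprised 24 dissected tissues on 100 arrays of 129 (44 arrays), B6 (47) and DBA (9), and the body comprised 10 tissues with 1 array of each of the 5 strains. The 4 tissues of hindbrain and cord were spinal cord, medulla, pons and cerebellum. The 5 tissues of diencephalon and midbrain were periaqueductal grey (PAG), inferior colliculi, superior colliculi, a midbrain and thalamus sample, and hypothalamus. The 12 telencephalic tissues were the bed nucleus of the stria terminalis (BNST), amygdala, striatum, dentate gyrus, hippocampal CA3 and CA1, whole hippocampus, perirhinal, entorhinal, motor and whole cortex, and olfactory bulbs. Retina, all of it from B6, pituitary and choroid plexus were the other neural tissues. Ages, sexes, and whether an array held 1 animal or a pool, were not given in the sources used here, so p-values measure the spread between these arrays or tissues.

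A pair of arrays labelled as 129 hippocampus and DBA perirhinal cortex held identical values for every probe set. Both were left out, which left 148 arrays with at least 3 for each tissue. The arrays were close in overall level, with upper quartiles between 167 and 185. Values are array intensities on a linear scale, and a floor of 10.4 (the 20th percentile over all arrays) replaced lower ones before log2 was taken. Differences are log2 differences ± SE, first group minus second group, and levels of different probe sets are not set against each other. A difference passed the test at a limma adjusted p of 0.05 and a log2 size of 1. A probe set was tested only where its mean passed an intensity of 53.2 in at least 1 tissue of the fit. These are whole-tissue samples, in which fewer cells of a type and less RNA per cell cannot be told apart.

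Of the 4 genes, the RefSeq table of promoters (build GRCm38.p6) held Prph, and it also held Ina. Both are printed because the Prph and Ina signals followed different patterns over the tissues described further on. Each window is 300 bases long, on the plus strand, running from 250 bases before the gene's start to 50 after it, at chr15:99054924-99055223 for Prph and chr19:47014431-47014730 for Ina.
Prph: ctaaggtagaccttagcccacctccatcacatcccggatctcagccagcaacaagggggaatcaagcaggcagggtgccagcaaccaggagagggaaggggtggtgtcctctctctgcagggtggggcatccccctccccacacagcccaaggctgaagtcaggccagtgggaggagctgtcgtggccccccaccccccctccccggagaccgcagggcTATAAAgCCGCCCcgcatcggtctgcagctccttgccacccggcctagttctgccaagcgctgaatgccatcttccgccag
Ina: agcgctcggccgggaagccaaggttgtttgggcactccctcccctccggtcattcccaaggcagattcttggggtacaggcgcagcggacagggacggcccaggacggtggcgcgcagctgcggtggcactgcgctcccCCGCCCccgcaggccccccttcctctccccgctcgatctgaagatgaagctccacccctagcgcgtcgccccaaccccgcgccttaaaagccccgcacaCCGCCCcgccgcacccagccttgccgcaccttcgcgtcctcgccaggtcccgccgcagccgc
Capitals mark every match to TATAAA, to GGGCGG and to CCAAT on either strand. The Prph window held TATAAA 31 bases before the start and GGGCGG on the minus strand 24 bases before it. The Ina window held GGGCGG on the minus strand 111 and 12 bases before the start and no TATAAA. None of these matches overlapped, and neither window held CCAAT. Of 32851 promoters in the table, 13.6% held TATAAA, 35.7% GGGCGG and 37.4% CCAAT on either strand. In the RefSeq gene order, Nefl and Nefm were neighbours among protein-coding genes on chromosome 14, while Nefh lay on chromosome 11 and Prph on chromosome 15.

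The comparison of the 24 neural tissues with the 10 body tissues asks how far the members are restricted to the nervous system. Nefl, Nefm and Nefh were higher in neural tissue, whereas neither Prph probe set passed the test. Nefl was higher by 5.20 ± 0.48 (adjusted p = 4.12e-11, 24 against 10 tissue means), Nefm by 3.68 ± 0.53 (adjusted p = 4.39e-07) and Nefh by 3.89 ± 0.41 (adjusted p = 9.10e-10). Ina differed by 6.02 ± 0.35, and by 5.37 ± 0.34 on its other probe set. The Prph difference was 0.26 ± 0.31 on the first probe set (adjusted p = 0.495) and 0.38 ± 0.30 on the second probe set (adjusted p = 0.286). Of all 9743 probe sets tested, 27.7% passed in either direction and 14.1% were higher in neural tissue, so a call in this comparison was common. In the body, Nefl lay at the floor on 26 of 50 arrays, Nefm on 46 and Nefh on 7. Ina lay there on 30 of 50, and on 24 by its other probe set. The differences of Nefl, Nefm and Ina therefore depend on where the floor was set. Of the 50 body arrays, 2 were at the floor for the first Prph probe set and 12 for the second Prph probe set.

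Within brain and cord the hindbrain and cord had far more Nefm and Nefh signal than the telencephalon, and Nefl differed less and did not pass. Nefm ran from 102 to 1756 over the 16 hindbrain and cord arrays with a median of 1009, from 71.0 to 477 with a median of 298 in diencephalon and midbrain, and from 31.7 to 319 with a median of 114 over the 50 telencephalic arrays. Nefh had a lowest value of 342, a median of 1677 and a highest value of 2216 in hindbrain and cord, 246, 671 and 862 in diencephalon and midbrain, and 147, 225 and 475 in the telencephalon. The ranges of hindbrain and cord and telencephalon overlapped for both genes, through cerebellum at the low end of the caudal group. Nefl had a lowest value of 244, a median of 1183 and a highest value of 1454 in hindbrain and cord, 455, 802 and 1131 in diencephalon and midbrain, and 128, 556 and 826 in the telencephalon.

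**Figure D1:**
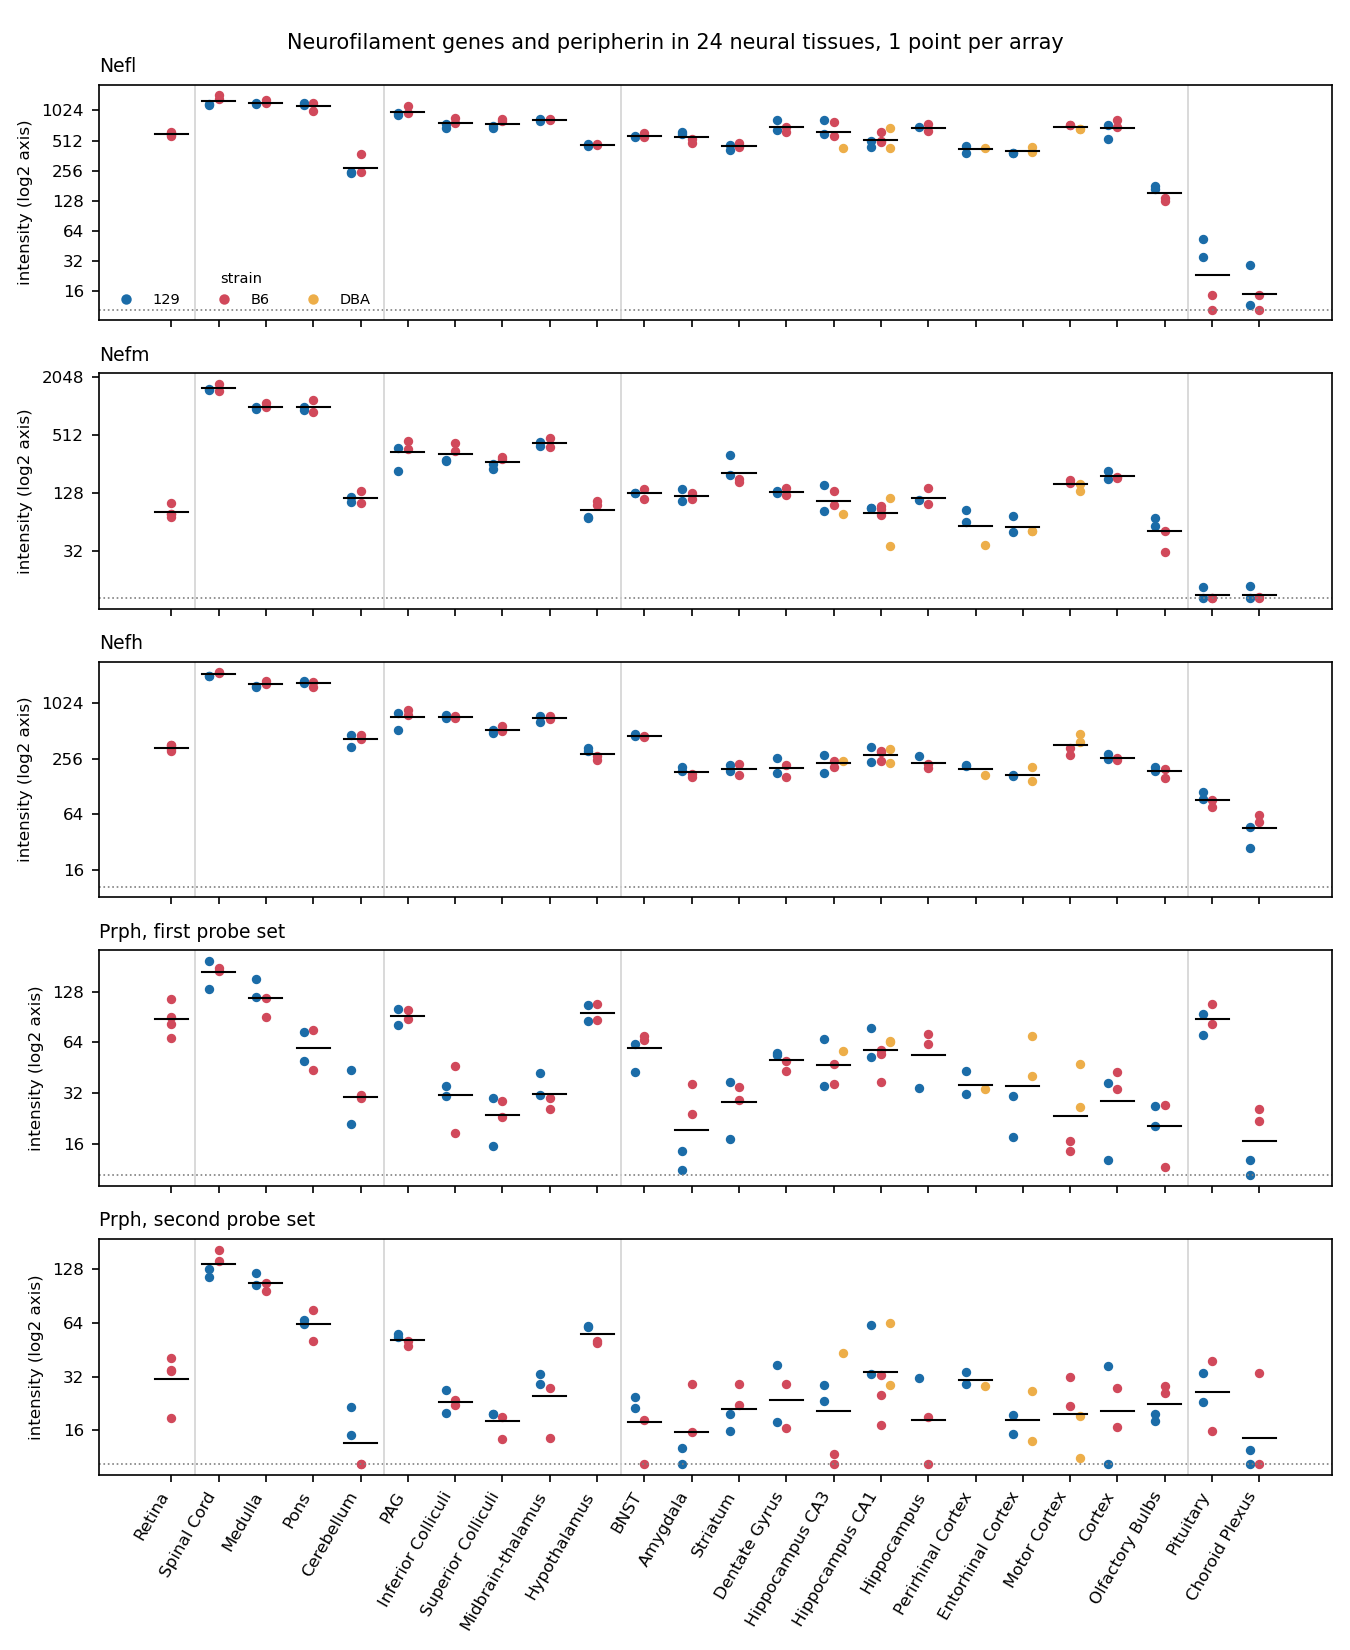
Intensity of the 5 probe sets on a log2 axis in 24 neural tissues, 1 point per array coloured by strain. Black bars are the mean of log2 values, the dotted line is the floor of 10.4, and grey lines part retina, hindbrain and cord, diencephalon and midbrain, telencephalon, and the pair pituitary and choroid plexus. Spinal cord, medulla and pons stand above the other tissues for Nefm and Nefh, and cerebellum lies with the forebrain tissues.

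On the 21 tissue means, hindbrain and cord minus telencephalon was 2.55 ± 0.51 for Nefm (adjusted p = 0.000932, 4 against 12 tissues by limma), the 14th highest of 7698 probe sets. It was 2.42 ± 0.33 for Nefh (adjusted p = 2.20e-05), the 19th highest. Nefl differed by 0.72 ± 0.36 (adjusted p = 0.148). Without cerebellum the Nefl difference was 1.26 and passed (adjusted p = 0.00461), so its call turned on that single tissue. Ina differed by 0.78 ± 0.16 (adjusted p = 0.00143), below the size limit, and by 0.53 ± 0.18 on its other probe set (adjusted p = 0.0299). In this comparison 6.82% of all probe sets passed in either direction and 3.2% were higher in hindbrain and cord, and the median over all probe sets was 0.02.

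The Prph signal lay nearer the floor. On the first probe set its lowest value was 20.9, its median 83.3 and its highest value 195 in hindbrain and cord, 15.6, 38.8 and 108 in diencephalon and midbrain, and 11.2, 37.3 and 78.1 in the telencephalon. The ranges overlapped across the 3 divisions. Prph was higher in hindbrain and cord than in telencephalon by 1.20 ± 0.42 on the first probe set (adjusted p = 0.0369) and by 1.51 ± 0.40 on the second probe set (adjusted p = 0.00796). These calls rest on few tissues. On the first probe set the difference no longer passed without spinal cord (0.83, adjusted p = 0.209), medulla, pons, amygdala or motor cortex, nor with a floor at the 40th percentile (0.97) or with all probe sets tested (adjusted p = 0.0669). On the second probe set it was lost without spinal cord (1.11, adjusted p = 0.0685) or medulla (1.23, adjusted p = 0.0551).

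The middle step of the axis gave 1 call. Nefh was higher in diencephalon and midbrain than in telencephalon by 1.26 ± 0.30 (adjusted p = 0.00598, 5 against 12 tissues), where 3.99% of probe sets passed. Nefm differed by 1.19 ± 0.47 (adjusted p = 0.0831), and it passed without hypothalamus (1.59, adjusted p = 0.0255) or without cerebellum (adjusted p = 0.0153). Between hindbrain and cord and diencephalon and midbrain none of the 5 probe sets passed by limma, where 65 of all probe sets (0.844%) did and 1663 had an unadjusted p under 0.05. The differences there were 1.36 ± 0.59 for Nefm (adjusted p = 0.187) and 1.15 ± 0.38 for Nefh (adjusted p = 0.0855), and both had an unadjusted p under 0.05. Without cerebellum Nefm (2.20, adjusted p = 0.00711), Nefh (1.68, adjusted p = 0.00307) and the second Prph probe set (1.64, adjusted p = 0.00615) passed in that comparison.

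**Figure D2:**
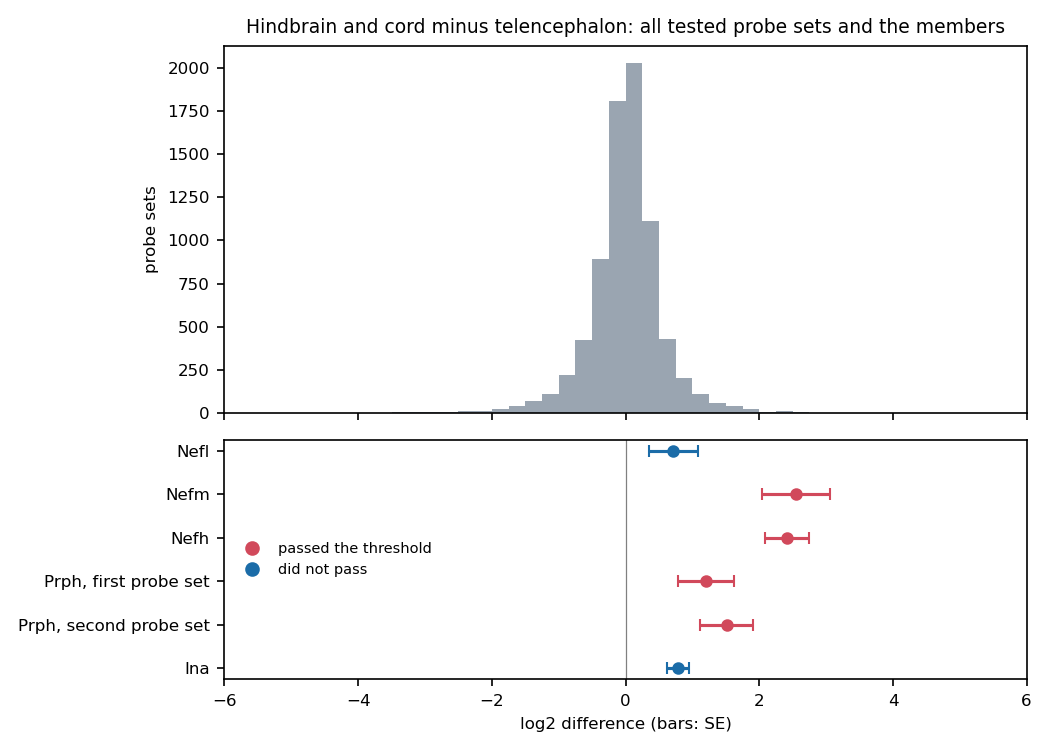
Upper panel, number of probe sets by log2 difference, hindbrain and cord minus telencephalon, for 7698 probe sets in steps of 0.25. Lower panel, the same difference with its SE for the members and Ina, red where it passed the test; Nefm at 2.55 and Nefh at 2.42 lie in the thin right tail.

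A difference between members within the same array removes a constant offset between their probe sets. On this measure Nefm and Nefh signal changed along the axis by more than Nefl signal. The measure assumes that the probe sets respond alike to a change in RNA, which was not tested. The within-array difference Nefm minus Nefl was higher in hindbrain and cord than in telencephalon by 1.89 (2-sided exact permutation test, 4 against 12 tissues, p = 0.0011, adjusted p = 0.0033 over 6 pairs). Nefh minus Nefl was higher by 1.68 (exact p = 0.00055, the smallest that the 1820 arrangements can give, adjusted p = 0.0033), and its 4 hindbrain and cord means, 0.42 to 0.72, lay above all 12 telencephalic means, -1.78 to 0.30. Cerebellum took part in this shift, with a Nefh minus Nefl difference of 0.61 ± 0.27 (SD, n = 4), and the highest telencephalic value was that of olfactory bulbs, 0.30 ± 0.19 (SD, n = 4). Nefh minus Nefm differed between the divisions by -0.21 (exact p = 0.583). Prph on the first probe set moved less than Nefh (Prph minus Nefh -1.29, exact p = 0.0022, adjusted p = 0.0044) and than Nefm (-1.50, exact p = 0.0137, adjusted p = 0.0206), and the difference from Nefm was lost without pons (-1.17, exact adjusted p = 0.112). Prph minus Nefl differed by 0.39 (exact p = 0.313).

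**Figure D3:**
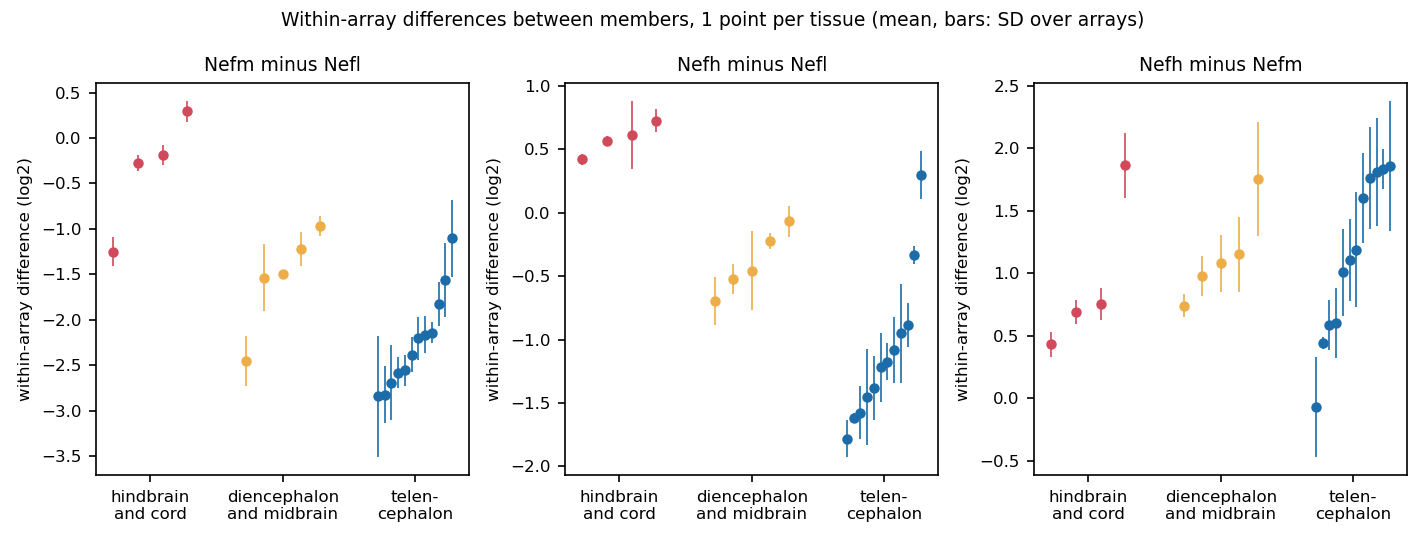
Within-array log2 difference between members, 1 point per tissue (mean over arrays, bars SD), sorted within each division. For Nefh minus Nefl the 4 hindbrain and cord tissues, 0.42 to 0.72, lie above every telencephalic tissue, and for Nefh minus Nefm the divisions overlap.

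Spinal cord held the highest mean of all 34 tissues on each of the 5 probe sets. Nefm measured 1548 and 1513 on the 129 arrays and 1756 and 1480.3 on the B6 arrays of spinal cord, and all 4 lay above the highest medulla value, 1106. Nefh measured 2045 and 2022 in 129 and 2216 and 2195 in B6 spinal cord, and all 4 lay above the highest pons value, 1803. Nefl measured 1178 and 1171 in 129 and 1454 and 1344 in B6 spinal cord, where its range overlapped that of medulla. Against the mean of the other 23 neural tissues, spinal cord was higher by 3.58 ± 0.15 for Nefm (adjusted p = 6.75e-36), by 2.76 ± 0.11 for Nefh, by 2.04 ± 0.23 for Prph on the first probe set and by 1.55 ± 0.15 for Nefl. Nefm had the 6th highest difference of 8501 probe sets in spinal cord, where 6.53% passed.

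Medulla and pons followed. Nefm averaged 1019.6 ± 63.6 in medulla and 1007 ± 124 in pons (SD, n = 4 each), and Nefh averaged 1645 ± 109 in medulla and 1692 ± 117 in pons. Against the other 23 neural tissues Nefm was higher by 2.93 ± 0.15 in medulla, where 4.4% of probe sets passed, and by 2.91 ± 0.15 in pons, where 4.6% did. For both genes the lowest pons and medulla arrays lay above the highest array of every tissue of diencephalon, midbrain and telencephalon. Prph on the first probe set measured 119, 153, 90.8 and 117 in medulla and 73.9, 49.7, 43.9 and 75.9 in pons, without overlap. Its medulla minus pons difference of 1.00 ± 0.31 did not pass (adjusted p = 0.295), and none of the 5 probe sets passed between medulla and pons, where 0.259% of all did and 276 had an unadjusted p under 0.05. Nor did any pass between spinal cord and medulla, where 1.21% did and 1096 had an unadjusted p under 0.05. The difference there was 0.63 ± 0.20 for Nefm (adjusted p = 0.0742) and 0.37 ± 0.15 for Nefh (adjusted p = 0.234).

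Cerebellum stood apart from its neighbours on all 5 probe sets. Nefm measured 105, 116, 136 and 102 in cerebellum, under every array of pons and medulla. Nefl measured 246 and 244 on the 129 arrays and 373 and 245 on the B6 arrays of cerebellum. Cerebellum was lower than the mean of pons and medulla by -3.14 ± 0.17 for Nefm (adjusted p = 1.86e-27), -2.12 ± 0.18 for Nefl (adjusted p = 5.33e-17), -2.001 ± 0.13 for Nefh (adjusted p = 3.58e-23), -1.46 ± 0.27 for Prph on the first probe set (adjusted p = 4.12e-06) and -2.59 ± 0.31 on the second probe set (adjusted p = 4.80e-11). Of all probe sets 5.46% were lower in this comparison, and Ina differed by -0.90 ± 0.22, below the size limit. The second Prph probe set lay at the floor on 2 of the 4 cerebellar arrays.

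In diencephalon and midbrain, PAG was higher than the other 23 neural tissues for Nefl (1.17 ± 0.15), Nefm (1.29 ± 0.15), Nefh (1.14 ± 0.11) and Prph on the first probe set (1.14 ± 0.23). In that comparison 4.01% of probe sets passed. On the second Prph probe set the PAG difference was 0.95 (limma adjusted p = 0.00272), below the size limit. The 4 PAG arrays of Nefl, 930.2 to 1131, lay above all 4 of the midbrain and thalamus sample, 796 to 847. In hypothalamus Prph was higher by 1.21 ± 0.23 on the first probe set (adjusted p = 1.03e-05) and by 1.06 ± 0.26 on the second (adjusted p = 0.000795), where 3.55% of probe sets passed, and Nefm differed by -0.80 ± 0.15, below the size limit. Prph measured 85.8 and 107 in 129 and 86.8 and 108 in B6 hypothalamus, close to PAG, and above all arrays of both colliculi and of the midbrain and thalamus sample, which reached 46.3. With a floor at the 40th percentile the Prph difference in PAG (0.90) and in hypothalamus (0.96) came under the size limit. On the second probe set the hypothalamus call was lost with that floor (0.50) and under quantile normalization (0.90). The midbrain and thalamus sample was higher for Nefm (1.61 ± 0.15) and Nefh (1.10 ± 0.11), where 3.2% of probe sets passed. Inferior colliculi were higher for the same pair (1.23 ± 0.15 for Nefm and 1.15 ± 0.11 for Nefh), where 2.56% passed. Their 4 Nefh arrays, 700.5 to 761, lay above the 4 of superior colliculi, 491 to 587. Pituitary and choroid plexus, the lowest neural tissues for Nefl, Nefm and Nefh, are among the other 23 and lower their mean. Against the other brain and cord tissues alone, these differences of Nefl, Nefm and Nefh in PAG, midbrain and thalamus, and inferior colliculi would be smaller. Whether they would still reach the size limit was not tested.

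In the telencephalon the order of the members' levels differed. Nefl was lowest in olfactory bulbs at 153 ± 24 (SD, n = 4), below every array of the other 11 telencephalic tissues, and lower there than in the other 23 neural tissues by -1.66 ± 0.15, where 5.87% of probe sets passed. Its highest telencephalic means, in dentate gyrus, motor cortex, whole cortex and whole hippocampus, lay from 692 to 699 and overlapped. Nefm was lowest in olfactory bulbs at 53.5 ± 16.6 (SD, n = 4) and highest in striatum at 216 ± 70 (SD, n = 4). Nefh was highest in BNST at 455.0 ± 14.4 (SD, n = 4), the only telencephalic tissue whose mean passed 400, and lowest in entorhinal cortex at 173 ± 26 (SD, n = 4). Only 1 motor cortex array reached BNST, at 475. Entorhinal cortex was lower than the other 23 neural tissues for Nefm (-1.18 ± 0.16) and Nefh (-1.06 ± 0.12), where 3.16% of probe sets passed, and the Nefh difference came to -0.99 without 1 DBA array. Perirhinal cortex was lower for Nefm (-1.20 ± 0.17), where 3.81% passed.

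Prph on the first probe set was lower than in the other 23 neural tissues in 3 telencephalic tissues. It measured 11.2 and 14.6 in 129 and 24.2 and 36.1 in B6 amygdala, 26.5 and 47.3 in DBA and 16.7 and 14.5 in B6 motor cortex, and 26.97 and 20.4 in 129 and 11.7 and 27.03 in B6 olfactory bulbs. The difference was -1.20 ± 0.23 in amygdala, where 2.58% of probe sets passed, -1.26 ± 0.24 in motor cortex, where 5.33% passed, and -1.13 ± 0.23 in olfactory bulbs. These values lie near the floor, and with a floor at the 40th percentile the differences came to -0.62, -0.68 and -0.66, under the size limit. The call in olfactory bulbs was also lost without 1 B6 array (-0.83), that in amygdala without 1 129 array (-0.95) and that in motor cortex without a strain term (-0.97). The second probe set did not pass in any of the 3 tissues, with -0.84 in amygdala, -0.56 in motor cortex and -0.29 in olfactory bulbs.

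Other genes were read beside the members in the same comparison. The lists were chosen with earlier results of these data in view, so their counts cannot show how selective the axis was. All 8 tested genes of the list of myelin and oligodendrocyte genes were higher in hindbrain and cord than in telencephalon (median 1.71, against 0.02 over all genes), led by Klk6, a secreted protease (4.80 ± 0.60), Ugt8a, which makes the main myelin lipids (2.62 ± 0.52), Mag (2.17 ± 0.48) and Mobp (1.77 ± 0.48), which encode myelin proteins. The mean log2 level of the 9 listed genes on the array ran from 9.91 to 9.99 in spinal cord, 9.36 to 9.43 in medulla, 9.43 to 9.61 in pons and 7.69 to 7.98 in cerebellum, against 5.96 to 6.18 in entorhinal cortex and 8.43 to 8.96 in striatum. Among these tissues myelin signal and the members were highest in spinal cord, medulla and pons. Nefl and Nefm were also higher in striatum than in cerebellum, as myelin signal was, but Nefh was lower (mean log2 7.66 against 8.72). The part of myelin in the members' differences was not tested.

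Of 11 tested genes of fast conduction and fast release, 4 were higher and none lower (median 0.76). These were Vamp1 (4.17 ± 0.67) and Syt2 (3.86 ± 0.59), which serve vesicle release, the calcium buffer gene Pvalb (2.24 ± 0.43) and the potassium channel gene Kcna1 (2.00 ± 0.34). Of 5 tested cholinergic genes, Ret (1.85 ± 0.47), the vesicular acetylcholine transporter gene Slc18a3 (1.55 ± 0.38) and Ache (1.51 ± 0.34), which encodes acetylcholinesterase, were higher. Of 16 general neuronal genes 1 was higher, Cplx1 (1.04 ± 0.38), and 2 were lower, Stx1a (-3.04 ± 0.48) and Syt1 (-1.62 ± 0.33), with a median of -0.10. None of 18 genes of microtubules and their partners and none of 13 linker and motor genes passed (medians -0.04 and -0.01). Of 16 kinases and phosphatases known to act on filaments, 3 were lower: Camk2a (-3.86 ± 0.58), Camk2b (-1.25 ± 0.24) and Cdk5r1 (-1.06 ± 0.33), which encodes the activator of Cdk5. Of the 6 other intermediate filament genes tested, Gfap of astrocytes was higher (1.59 ± 0.58). Of 8 astrocyte genes 3 were higher, S100b (1.72 ± 0.12), which encodes a calcium-binding protein, Gfap and the water channel gene Aqp4 (1.43 ± 0.20). None of 6 tested microglial and none of 10 endothelial genes passed.

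Of 7 tested genes of peripheral nerve and sensory neurons, 3 were higher in hindbrain and cord than in telencephalon and 1 was lower (median 0.97). The higher ones were Pmp22, a myelin gene of Schwann cells (1.91 ± 0.31), Sncg, which encodes gamma-synuclein (1.76 ± 0.30), and S100b, which is also on the astrocyte list, and the lower one was Egr2, a regulator of Schwann cell myelination (-1.23 ± 0.42). Between spinal cord and medulla Egr2 (1.95 ± 0.44) and Pmp22 (1.85 ± 0.18) were higher, with a median of 0.71 over the 7. The mean log2 level of the 9 listed genes on the array ran from 7.03 to 7.36 in spinal cord, 6.30 to 6.57 in medulla, 6.21 to 6.34 in pons and 5.52 to 5.63 in cerebellum, against 5.31 to 6.58 in the telencephalon. Scn9a, a sodium channel gene of sensory neurons, lay at the floor on all 4 spinal cord arrays, and Scn10a, another, measured 3.67 to 58.7 there, with 1 array at the floor. Pmp22, Sncg and S100b moved with the members along the axis, Egr2 moved against them, and the part of these genes in the members' differences, those of Prph among them, was not tested.

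The 3'-to-5' ratio of the Gapdh control probe sets, a sign of RNA integrity, had a median of 0.842 in hindbrain and cord and 0.942 in telencephalon. On arrays with that ratio as a covariate, a fit added after seeing the data, the differences were 2.54 for Nefm, 2.45 for Nefh and 0.74 for Nefl. The calls were those on tissue means, but Nefl (limma adjusted p = 2.23e-09) failed here on size alone. Arrays of a tissue only repeat it, so the p-values of this fit cannot be set against those on tissue means.

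Retina had less Nefm signal than the mean of the brain and cord tissues, and its Nefl, Nefm and Nefh signals all lay within the range of their tissue means. Nefl measured 602, 617, 572 and 581 on the 4 retina arrays, against tissue means from 153 to 1287 over the 21 brain and cord tissues. Nefm measured 77.1, 72.1, 101 and 78.0 in retina, where the 21 tissue means ran from 53.5 to 1574. Nefh measured 325, 309, 361 and 360.1 in retina. Retina was lower than the mean of the 21 tissues for Nefm by -1.24 ± 0.15 (adjusted p = 1.15e-11). Retina minus those tissues was -0.01 ± 0.16 for Nefl (adjusted p = 0.945) and -0.22 ± 0.11 for Nefh (adjusted p = 0.0674). Retina differs broadly from brain, with 27.7% of all probe sets passing in either direction and 12.6% of all being lower. Under quantile normalization the median retina difference of all probe sets moved to -0.04, against 0.09 without it, 43.5% of the probe sets that passed were higher, against 54.6% without it, and the Nefl difference became 0.23 ± 0.16.

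The 2 Prph probe sets disagreed in retina. On the first probe set Prph measured 90.7, 82.1, 68.3 and 116, and retina minus the 21 tissues was 0.99 ± 0.23 (adjusted p = 0.000106), just under the size limit. On the second probe set Prph measured 18.8, 35.1, 34.4 and 40.5, and the difference was 0.22 ± 0.27 (adjusted p = 0.467). Prph is not the photoreceptor gene Prph2, whose product is also called peripherin and which was higher in retina by 7.29.

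Marker genes were read beside the retina label. All 13 photoreceptor genes of the list that were on the array were higher (median 7.29). They were led by Gnat1 (9.95), Sag (8.78), Tulp1 (8.33) and Pde6g (8.27), which serve light detection in rods or the rod outer segment. Of these 13, only 3 passed the filter in the fit of the 21 brain and cord tissues. The others could enter the test through retina itself, so the count is no separate support for the label. Of 8 tested genes of the ganglion cells, whose axons form the optic nerve, 4 were higher, among them Isl1 (3.39) and Rbpms (2.37). Another 3 were lower, among them Gap43 (-2.90) and Stmn2 (-2.05). Of 16 general neuronal genes 8 were lower and none higher (median -1.24), led by the synaptic genes Cplx1 (-2.75), Syn2 (-2.60) and Stx1a (-2.52) and by Vsnl1 (-2.12), a calcium sensor gene. All 8 tested myelin genes were lower (median -4.45), led by Mobp (-7.13), Mbp (-6.58), Cldn11 (-4.85) and Mag (-4.74). The mean log2 level of the 16 general neuronal genes ran from 8.40 to 8.49 in retina and from 9.22 to 9.33 in cerebellum, whose mean was the lowest of the 21 brain and cord tissues. The part of cell makeup in the retina values was not tested.

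Pituitary and choroid plexus had almost no Nefl or Nefm signal. Nefl measured 35.2 and 52.9 in 129 and 14.7 and 9.51 in B6 pituitary, and 29.2, 11.5, 14.5 and 8.10 in choroid plexus. Against the other 23 neural tissues Nefl was lower by -4.49 ± 0.15 in pituitary and -5.15 in choroid plexus, and Nefh by -1.97 ± 0.11 in pituitary and -3.03 in choroid plexus. In pituitary 26.8% of probe sets passed and in choroid plexus 34.2%. Prph on the first probe set measured 94.8, 70.4, 82.2 and 108 in pituitary and was higher there by 1.07 ± 0.23 (adjusted p = 2.12e-05). That call was lost with a floor at the 40th percentile (0.82), under quantile normalization (0.87) and without 1 B6 array (0.99). On the second probe set Prph measured 23.0, 33.8, 16.0 and 39.0 in pituitary, and that difference did not pass. In choroid plexus Prph on the first probe set was lower by -1.44 ± 0.23, and this call was lost with the higher floor (-0.66). On the second probe set the choroid plexus difference was -0.95 (limma adjusted p = 0.000824), below the size limit. Without 1 B6 array it passed at -1.39.

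Adrenal gland holds chromaffin cells, relatives of sympathetic neurons, inside a steroid-making cortex. The 3 neurofilament genes gave no signal there that passed the filter. Nefl measured 6.89, 14.5, 8.73, 16.4 and 14.6 in adrenal, Nefm was at the floor on all 5 adrenal arrays, and Nefh ran from 21.3 to 32.9. Prph on the first probe set measured 55.2 in C3H, 42.2 in AJ, 39.9 in DBA, 83.3 in 129 and 54.4 in B6 adrenal, within the range of other body tissues. Adrenal minus the other 9 body tissues was 0.55 ± 0.31 (adjusted p = 0.132), where 14% of 8921 probe sets passed. Nefl, Nefm, Nefh and the second Prph probe set were too dim for the test.

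Ina was higher in adrenal than in the other 9 body tissues. Ina measured 51.4, 68.2, 44.0, 53.4 and 77.2 in adrenal, and no array of another body tissue passed 27.9. Its difference was 2.22 ± 0.18 (limma adjusted p = 1.59e-13). Ina passed the filter of this fit through adrenal alone, where it was high, so that p-value is no separate support. Ina also lay at the floor on 30 of the 50 body arrays, so the size depends on the floor. On the other Ina probe set adrenal had the highest body mean as well, 32.9, too dim for the test. Of 12 tested chromaffin and sympathetic genes (13 on the array), 11 were higher in adrenal (median 3.76). They were led by the granin genes Chgb (7.55 ± 0.21), Scg2 (7.23 ± 0.13) and Chga (5.66 ± 0.31) and by the peptide gene Npy (5.34 ± 0.60). All 8 adrenal cortex genes were higher (median 5.15), led by Cyp11a1 (7.62 ± 0.19), Hsd3b1 (6.62 ± 0.24), Star (6.61 ± 0.24) and Cyp21a1 (5.35 ± 0.14), which serve steroid synthesis. Of 16 general neuronal genes on the array 9 passed the filter, the others being too dim in every body tissue. Among the 9 tested, 5 were higher, led by Vsnl1 (3.13 ± 0.27), Snap25 (2.73 ± 0.08), Uchl1 (2.54 ± 0.22) and Eno2 (1.58 ± 0.18). A gene bright in adrenal alone enters this fit through adrenal, so the counts of these lists are no separate support.

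**Figure D4:**
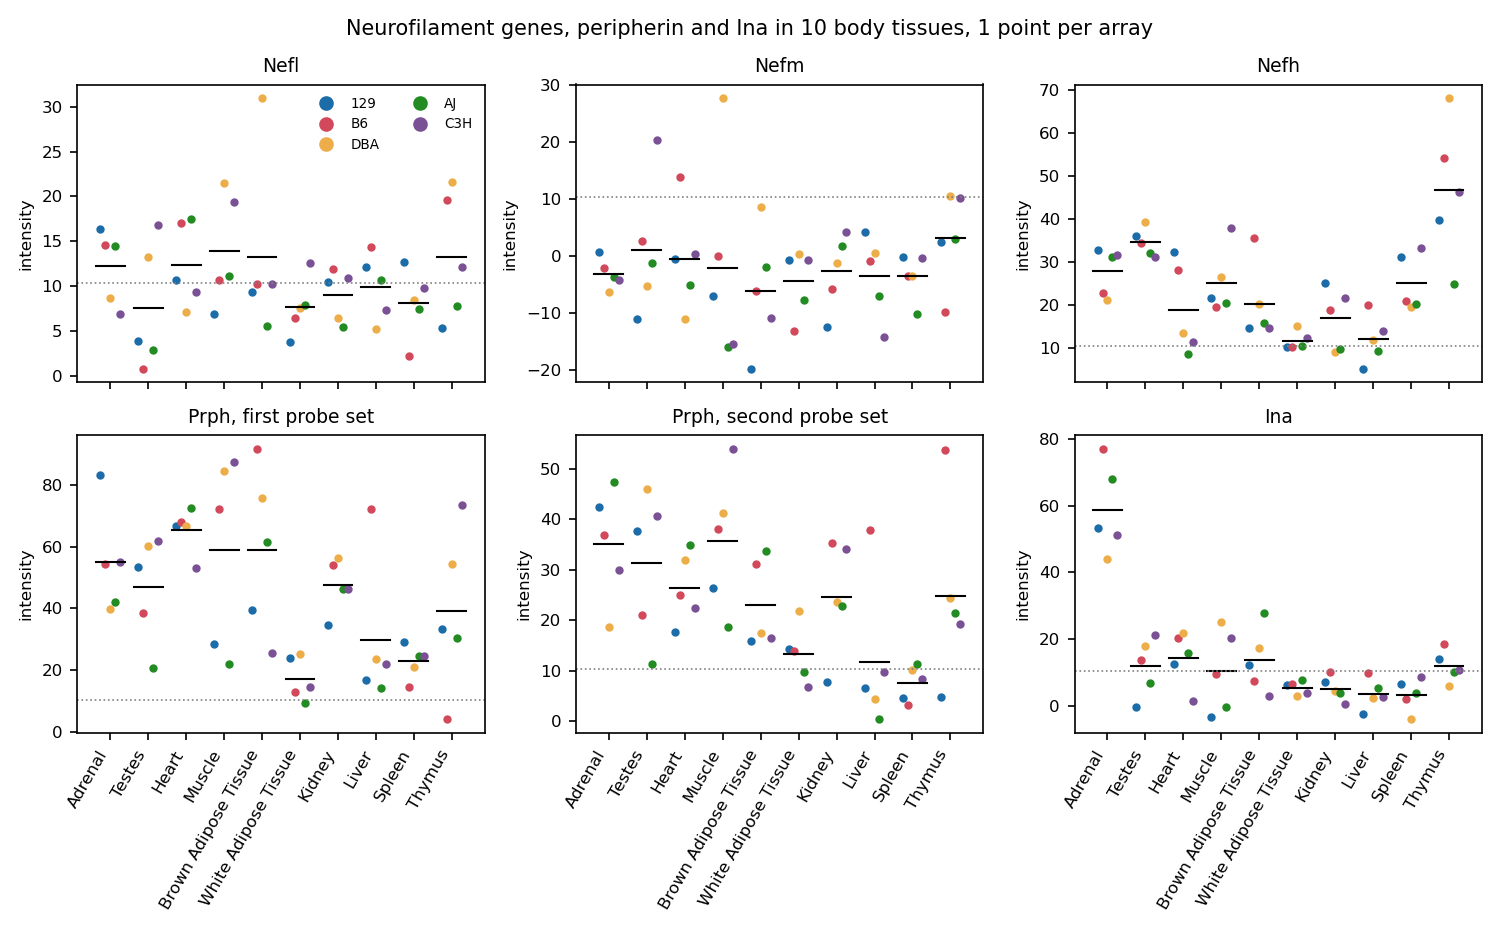
Intensity of the 5 probe sets and Ina in 10 body tissues, 1 point per array coloured by strain; black bars are means and the dotted line is the floor of 10.4. Nefm lies below the floor on 46 of 50 arrays, Ina in adrenal lies from 44.0 to 77.2, and Prph on the first probe set spreads from 4.04 to 91.8 with its highest mean in heart.

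Among body tissues the mean of Prph on the first probe set was highest in heart, 65.4 ± 7.3 (SD, n = 5), whose difference from the other 9 tissues was 0.88 ± 0.31 (adjusted p = 0.0131), below the size limit. White adipose tissue was lower by -1.34 ± 0.31 (adjusted p = 0.000252), with 9.43, 12.9, 23.9, 25.2 and 14.4, in a comparison where 20.2% of probe sets passed. With a floor at the 40th percentile this difference was -0.55 and did not pass. No other body tissue passed on this probe set. Nefh had its highest body mean in thymus, 46.7 ± 16.1 (SD, n = 5), below the intensity needed for the test.

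No member passed the test of strain in neural tissue. The 129 minus B6 difference over 20 tissues was 0.08 ± 0.07 for Nefl (adjusted p = 0.512), -0.02 ± 0.06 for Nefm, 0.00 ± 0.05 for Nefh, -0.14 ± 0.10 for Prph on the first probe set and 0.17 ± 0.11 on the second probe set. None passed the limma threshold of an adjusted p of 0.05 and 1.5-fold, which 2.44% of 8166 probe sets did. None of the 5 had an unadjusted p under 0.05, where 2619 of all probe sets did. In the body tissues Prph on the first probe set did not differ among the 5 strains by more than the spread (F test, adjusted p = 0.443), where 13.5% of probe sets passed.

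Across the 21 brain and cord tissue means, the Pearson correlation was 0.92 for Nefm with Nefh, 0.82 for Nefl with Nefm and 0.71 for Nefl with Nefh. By Spearman rank the order of the 3 pairs was another, at 0.79 for Nefm with Nefh, 0.89 for Nefl with Nefm and 0.80 for Nefl with Nefh. Nefh and Ina correlated at a Pearson r of 0.92, and Prph on the first probe set correlated with Nefl, Nefm and Nefh at 0.52 to 0.60 and with its own second probe set at 0.84. By Spearman rank the first Prph probe set correlated with Nefl at 0.45, Nefm at 0.29, Nefh at 0.54 and its second probe set at 0.66. The correlations are descriptions over 21 tissue means, with all genes read on the same arrays. Among 5845 other genes, the pattern most like that of Nefm was that of Pi4k2a (0.95), then Pip4k2a, Gjb1, Myo1d and Josd2 (0.92). For Nefh these were Kctd9 (0.95), Fgf1, Ndufb8, Hgsnat and Gjb1 (0.93), for Nefl Nsun2 (0.91), Asns, Msmo1, Ckmt1 and Tango2 (0.88), and for Prph Rexo2 (0.89), Nkx2-9, Mmp9, Septin10 and Slc25a1 (0.87). Gjb1, which encodes the gap junction protein connexin 32, was in the lists of both Nefm and Nefh.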

How the data were processed

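The deposited values are one intensity per probe set and array on a linear scale, as the authors deposited them. No source used here names the software, background correction or scaling behind the intensity values, and 5.97% of values were below 0. RNA was extracted with TRIzol and a column kit and made into biotin-labelled target, per the labels' protocols. Gene symbols came from the platform annotation, under which 10833 of 12422 probe sets without controls carried 1 symbol, 396 several and 1193 none.

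No further scaling was applied. Intensities were floored at 10.4 and expressed as log2. limma 3.58.1 (R 4.3.3, prior variance as a trend) was fitted to probe sets, and p-values were adjusted by Benjamini-Hochberg over all probe sets tested in a comparison. Neural against body tissue and the 3 divisions were tested on strain-adjusted tissue means, because arrays of a tissue only repeat it. Single tissues were tested on arrays with strain as a term, and strains with tissue as a term. Whole cortex and whole hippocampus contain other dissected parts. The fits were tested on simulated data with known changes. The number of arrays limits the precision.

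The members and gene lists were chosen with earlier results of these data known. All members are given. From each list described in a comparison, up to 4 genes that passed there, with the largest differences, are named, together with Ina and the 5 genes most like each member. Alternatives varied the floor, scaling, filter, variance trend, strain term, replicate block, Gapdh ratio, identical arrays and probe sets per gene, and left out tissues or arrays.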

Additional observations from a re-analysis of the deposited data

Results flagged for a closer look

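The strain difference of Nefl, 129 minus B6, varied among 19 neural tissues that had at least 2 arrays of each strain (limma interaction F test, adjusted p = 0.000456, where 1657 of 8083 probe sets had an adjusted p of 0.05 or less). In pituitary Nefl averaged 44.0 on the 129 arrays and 12.1 on the B6 arrays (n = 2 each), the largest log2 difference being 1.80 there. Without pituitary and choroid plexus, a choice made after seeing the data, the interaction of Nefl no longer passed (adjusted p = 0.324).

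Arrays that stood far from the others of their tissue were counted in groups of 4 to 7 arrays. In the 118 groups with no array at the floor there were 5, where chance alone is known to set apart about 1 group in 20. Among these, Nefl measured 373.33 on a B6 array of cerebellum and 244 to 246 on the other 3. Nefm measured 36.56 on a DBA array of CA1, against 76.6 to 115 on the others, and 74.61 on a 129 array of entorhinal cortex, against 50.7 to 52.5. Prph on the first probe set measured 52.95 on the C3H heart array, against 66.7 to 72.4, and the second Prph probe set measured 14.29 on a B6 array of superior colliculi, against 19.1 to 19.9.

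Another 12 lay in the 42 groups with arrays at the floor. In 10 of them every other array was at the floor, so that any value above it stands apart by construction and no rate by chance applies. For Nefl they were 12.56 in C3H white adipose tissue, 12.72 in 129 spleen and 30.96 in DBA brown adipose tissue. For Nefm they were 13.7 in 129 pituitary, 13.94 in 129 choroid plexus, 27.75 in DBA muscle, 10.48 in DBA thymus, 13.95 in B6 heart and 20.42 in C3H testes. For the second Prph probe set they were 33.66 in B6 choroid plexus, 11.34 in AJ spleen and 37.91 in B6 liver.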

How the results depend on the processing

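The neural minus body differences of Nefl (3.86 to 5.62), Nefm (2.20 to 4.93) and Nefh (3.31 to 4.12), and the hindbrain and cord minus telencephalon differences of Nefm (2.13 to 3.39) and Nefh (2.16 to 2.94), kept their direction and call under all alternatives run. The limits lie with dim probe sets. Prph in most tissues, and Nefl, Nefm and most Ina values in the body, sit near the floor. There a change of floor sets the size of a difference.

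With the floor at the 40th percentile, which compresses low values by construction, the axis difference of Prph was 0.97 on the first probe set, spinal cord against medulla had 65 calls (103 otherwise), adrenal 814 (1251 otherwise), and the body tissues 0 calls of members (1 otherwise). Signs turned for the second Prph probe set in retina against the 21 tissues (-0.16), in retina against the other 23 (-0.13) and in perirhinal cortex (-0.33), for the strain difference of Nefl (-0.024) and Prph (0.00087), and for Nefl in hypothalamus (-0.046). With a lower floor the second Prph probe set in pituitary came to 0.0057. Quantile normalization gave 0.23 for Nefl in retina, and for the second Prph probe set -0.26 in retina against the 21 tissues, -0.22 against the other 23, 0.023 in the midbrain and thalamus sample and -0.15 in perirhinal cortex. It also moved the share of calls that were higher to 57.8% in hypothalamus (71.2% otherwise), 66.2% in the midbrain and thalamus sample (50% otherwise) and 39% in perirhinal cortex (50.9% otherwise). Without a filter, which adds dim probe sets to the adjustment, Prph on the axis stayed at 1.20 but did not pass (adjusted p = 0.0669), and the body tissues had 3 calls of members. With 1 probe set per gene, which tests fewer probe sets, medulla against pons had 14 calls (22 otherwise), retina 1510 (2354 otherwise), strain 122 (199 otherwise) and the body tissues 0 calls of members. With the identical arrays kept, Nefh by strain was -0.00051 and the second Prph probe set in perirhinal cortex -0.077. Without a strain term Nefh in retina against the other 23 was -0.010. Without pituitary and choroid plexus, a choice made after seeing the data, Nefl by strain was -0.049.

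The numbers in the array titles do not pair samples by rule: 32 pairs of the same strain and number had a median correlation of 0.0727, with 14 over 0.1, against -0.0228 for other pairs. With them as a replicate block (consensus correlation 0.157 in neural tissue), Prph in retina passed at 1.00 (adjusted p = 8.68e-05) and at 1.02 against the other 23. In the fits on arrays no other call of a member changed under the block.

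Leaving out 1 tissue at a time gave 0.51 to 1.26 for Nefl on the axis, 0.83 to 1.65 for Prph on the first probe set and 1.11 to 2.22 on the second, the highest each time without cerebellum (1.26 for Nefl) and the lowest without spinal cord. Between hindbrain and cord and diencephalon and midbrain it gave 10 calls without spinal cord to 153 without cerebellum (65 otherwise), and -0.029 to 0.72 for Nefl, with -0.0083 without medulla. Prph minus Nefm ran from -1.89 without cerebellum to -1.17 without pons, the other tissues giving -1.62 at the lowest. Leaving out 1 array turned or moved small differences. Prph in retina passed at 1.02 and 1.11, and Nefl there came to 0.0042 and Nefh against the other 23 to -0.026 and -0.025. Nefl in spinal cord against medulla came to -0.012, Nefm in medulla against pons to -0.015, -0.0069 and -0.031, and Nefh in motor cortex to -0.042. The second Prph probe set came to 0.095 in the midbrain and thalamus sample, -0.078 in perirhinal cortex, and 0.033 and 0.16 in pituitary. Where no construction is named, the cause was not tested.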
